A study of Arabidopsis thaliana with 4 samples.

Results

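A total of 68 loci stood far apart between the libraries labelled as replicates of the hybrid Col-0xAk-1, and they are described here with their values in the inbred accession Ak-1 beside them. Members were chosen by value: among the 15905 loci whose mean across the 4 libraries reached 1 FPKM (tested loci, of 34133 in all), they differed by more than 2 between the hybrid libraries on the log2(FPKM + 1) scale, 4-fold on that scale. That rule found 74 loci, and 6 named loci (FLC, SOC1, ESP, MAM3, AOP2 and BT2) were left out of it. FPKM is the number of sequenced fragments scaled by transcript length and library size. Since the hybrid difference chose the members, it is given without a test.

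The study sequenced RNA from the first leaf of Arabidopsis thaliana at 14 days on Murashige and Skoog plates with 1% sucrose, with 2 libraries of Ak-1 and 2 of the hybrid. All libraries share tissue, age and medium, and no treatment is labelled. Titles and strain give Ak-1, the genotype label gives Aa-0 and the design text gives Ak-0, and the hybrid carries the same conflict (Col-0xAa-0 as genotype). Col-0 alone was not analysed here, and no label ties a replicate to separate plants. Nor do the labels say that both hybrid libraries come from the same cross, so each hybrid difference is one between libraries that share a label, and every fit below that takes them as replicates rests on that label. In a bulk leaf sample, fewer cells of a type and less RNA per cell cannot be told apart.

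In a first-generation hybrid of inbred lines, every plant carries a copy of each parental genome, and most loci can be transcribed from both parental alleles. Leaf transcripts for iron supply, wounding, touch and sugar state are known to respond quickly to growth conditions and handling. Pseudogenes and transposon-derived transcripts are often silent in leaves and often differ between accessions.

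The libraries themselves stood apart in several ways. Of 13 leaf mesophyll markers, such as Rubisco and light-harvesting genes, 12 were high in every library. The other, the Rubisco small subunit gene RBCS1A, had 20052 and 20897 FPKM in Ak-1 but 0 in each hybrid library. An exact 0 in these files can therefore be a failed estimate, and where a locus is given here as 0 it is only listed so. Markers of mesophyll summed to 80601 and 85367 FPKM in Ak-1, of which RBCS1A gave 20052 and 20897. These Ak-1 sums therefore cannot be set against the hybrid ones, which hold RBCS1A at 0. In the hybrid the mesophyll markers summed to 79831 FPKM in replicate 1 and to 63632 in replicate 2. Their median hybrid difference was −0.27, with LHCB3 at −0.84 and LHCB1.3 at −0.79, and the part of this shift in the members' differences was not tested. Of 10 root markers 8 had at most 0.23 FPKM in every library, and the shoot apex and seed markers summed to at most 0.6 and 0.06 FPKM. Vascular and stomatal lineage markers had median hybrid differences of 0.01 and 0.25. The 18S ribosomal RNA locus AT3G41768 was listed at 10547 and 7145 FPKM in Ak-1, at 1670 in hybrid replicate 1 and at 4446 in hybrid replicate 2. Relative depth, read from the steps between low values, was set to 1 in Ak-1 replicate 1 and came to 1.13 in the other Ak-1 library, with 1.35 and 1.18 in hybrid replicates 1 and 2.

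Hybrid replicate 2 was the higher library for 47 members and hybrid replicate 1 for 21. Over all tested loci 0.327% passed the rule's threshold with replicate 2 higher and 0.138% with replicate 1 higher, before the named loci were left out. The sizes ran from 2.02 to 4.61 (median 2.43) where replicate 2 was higher and from 2.02 to 3.49 (median 2.66) where replicate 1 was. Just inside the threshold were GDPD2 (2.02), AT5G01595 (2.02) and AT3G48640 (2.02). LSU1 (1.99), FAMT (1.98) and EXT4 (1.97) lay just outside it.

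**Figure D1:**
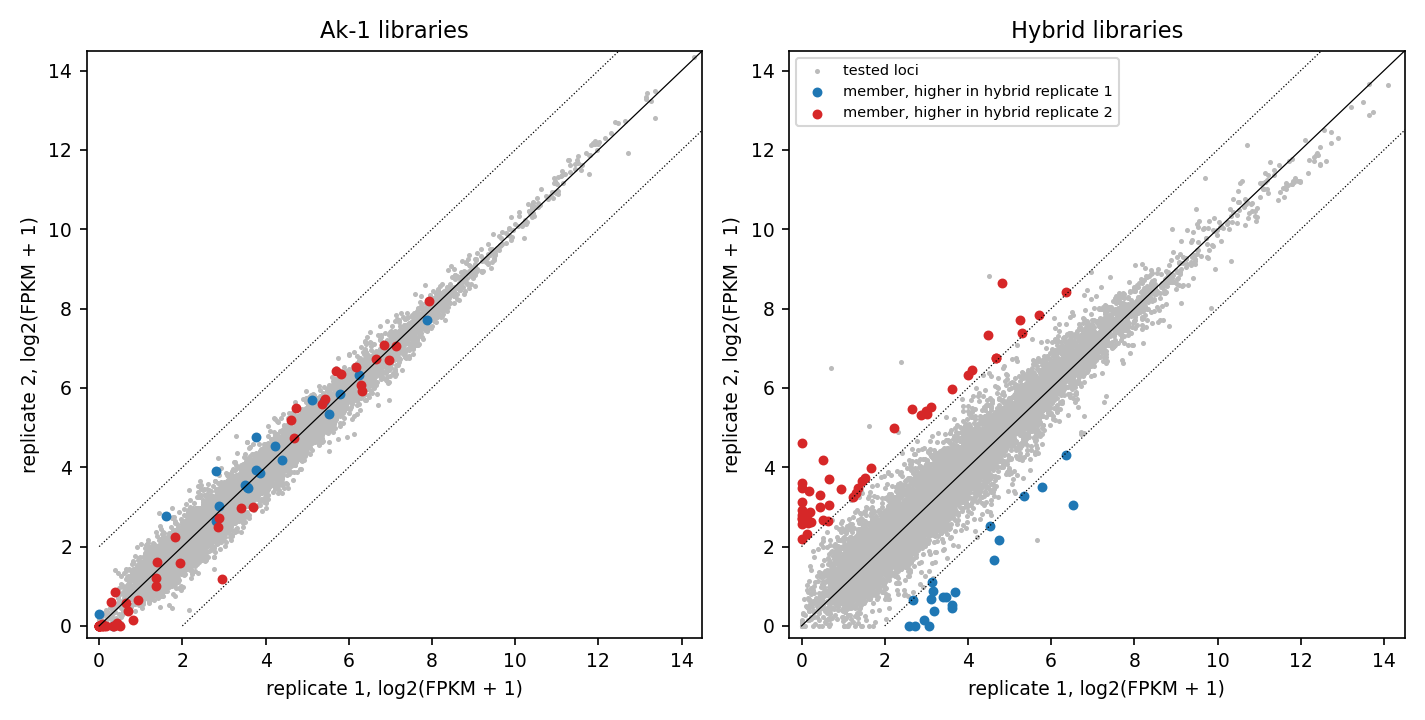
Replicate 2 against replicate 1 in log2(FPKM + 1) for the 15905 tested loci, with the Ak-1 libraries on the left and the hybrid libraries on the right; coloured points are the 68 members, the solid line marks equal values and the dotted lines a difference of 2. No tested locus crosses the dotted lines between the Ak-1 libraries, and the grey points beyond them on the right are the 6 loci left out by the rule.

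The Ak-1 pair, which the choice of members used only through the mean, showed no such spread. No tested locus differed by more than 2 between the Ak-1 libraries. A difference above 1 was seen for 3 of the 68 members, EARLI1, AT4G12490 (1.17) and SDI1 (−1.77), against 0.314% of tested loci. The median size of the Ak-1 difference was 0.23 for the members and 0.14 for tested loci. Of 60 members with an Ak-1 difference other than 0, 23 had the sign of their hybrid difference, and over tested loci 44.6% of signs matched.

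Ak-1 lay nearer to hybrid replicate 1 for 51 members and nearer to replicate 2 for 17, while over all tested loci 58.1% lay nearer to replicate 1. In 43 members only hybrid replicate 2 was more than 1 from the Ak-1 mean (4.68% of tested loci), in 11 only hybrid replicate 1 was (2.13%), and in 14 both were (4.5%). Of those 14, 12 had both hybrid libraries on the same side of Ak-1, and AT4G12490 and TCH4 had Ak-1 between them. The 43 divide into 29 members with replicate 2 above Ak-1 and 14 with it below. The 29 include 19 members under 1 FPKM in both Ak-1 libraries and hybrid replicate 1. These passed the filter on the mean only through hybrid replicate 2, so their place nearer to replicate 1 was fixed by the choice. A hybrid difference above 2 also puts at least 1 hybrid library more than 1 from the Ak-1 mean, so these counts are a description.

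**Figure D2:**
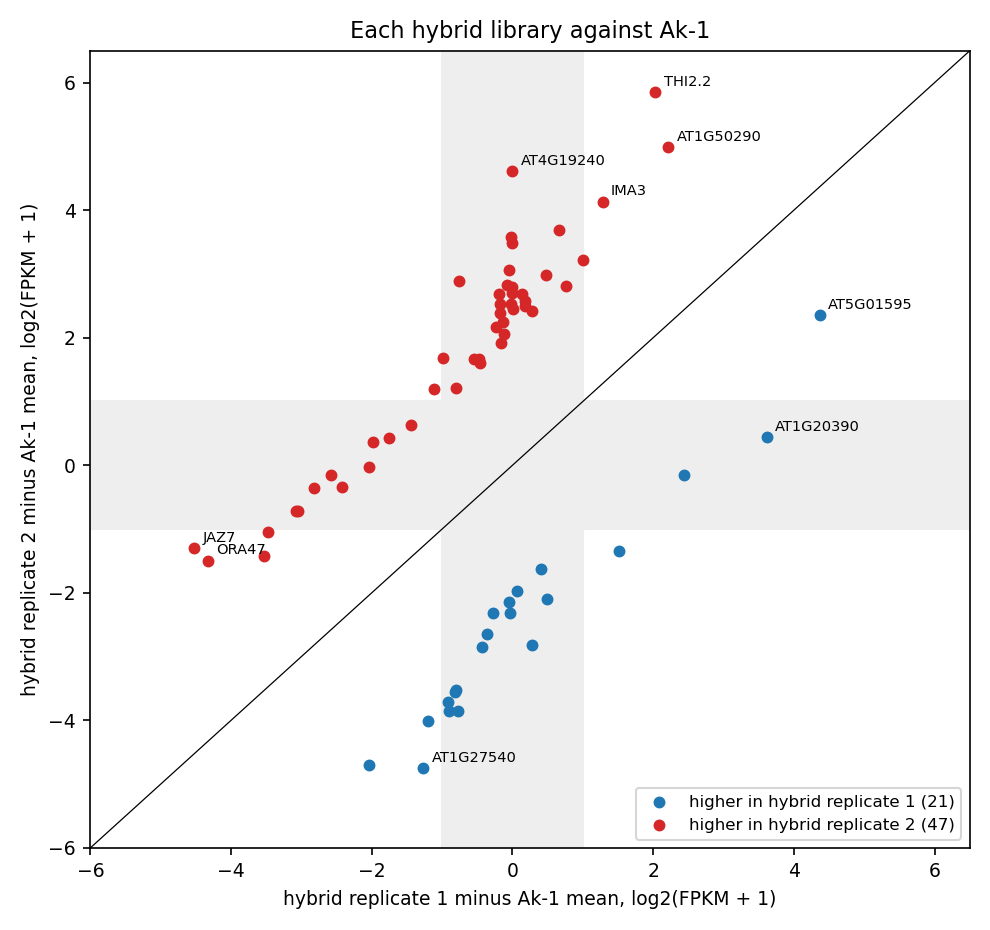
Hybrid replicate 2 minus the Ak-1 mean against hybrid replicate 1 minus the Ak-1 mean, in log2(FPKM + 1), 1 point per member, with the diagonal marking equal hybrid libraries and the grey bands values within 1 of Ak-1. Most red points (replicate 2 higher) lie in the vertical band, at Ak-1's level in replicate 1, while JAZ7 and ORA47 lie at the lower left with both hybrid libraries under Ak-1.

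Taken as 2 replicates, the hybrid libraries gave no called member. With limma, which fits a linear model per locus and borrows the spread across loci, 0 of the 68 members had an adjusted p under 0.05 for hybrid minus Ak-1, against 4.13% of tested loci. An unadjusted p under 0.05 was found for 15 of the 68, and for 20.2% of tested loci. The lowest adjusted p from limma was 0.0648, for AT5G01595. The wide hybrid spread that the rule asked for enters this test, so the count says nothing further about the members.

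Both hybrid libraries lay above both Ak-1 libraries for 13 members (20.5% of tested loci) and below them for 20 (32.6%), and the groups overlapped for 35. With hybrid replicate 2 alone against Ak-1, limma called 32 members higher (3.52% of tested loci) and 17 lower (4.72%). With hybrid replicate 1 alone it called 5 higher (1.23%) and 13 lower (2.26%). A lone library is there assumed to vary like the Ak-1 pair, and a member had to lie more than 1 from the Ak-1 mean in at least 1 hybrid library, so these counts are a description.

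**Figure D3:**
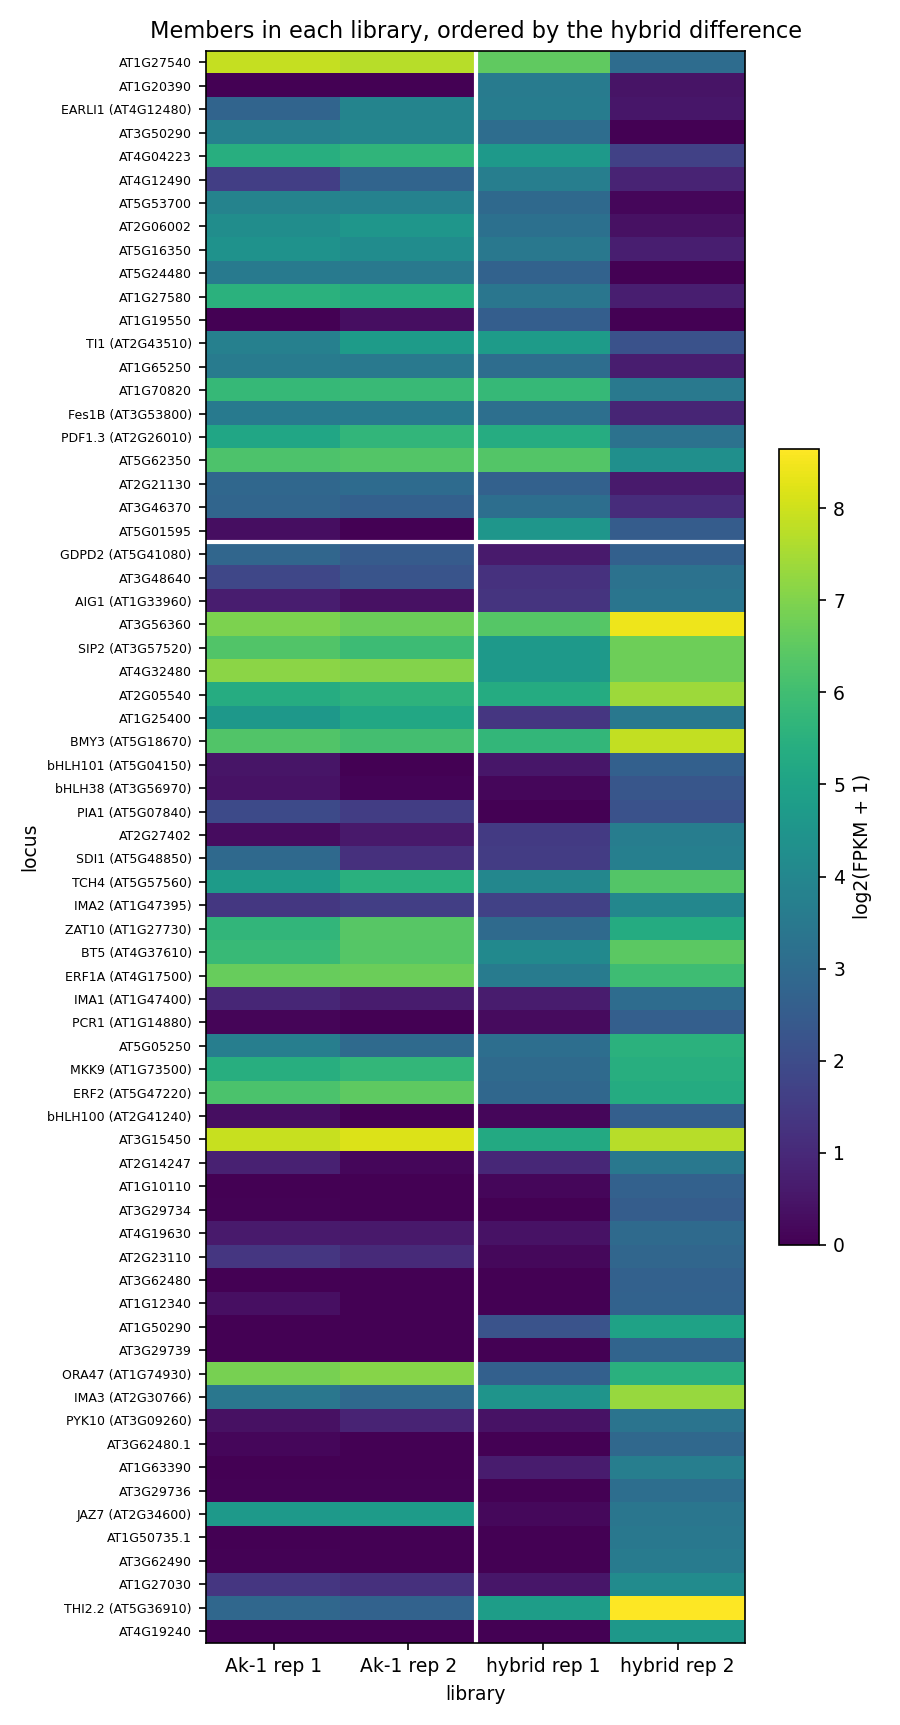
Heat map of log2(FPKM + 1) for the 68 members (rows) in the 4 libraries (columns), ordered by the hybrid difference, with the white horizontal line between the 21 members higher in hybrid replicate 1 and the 47 higher in replicate 2. The lower rows include loci dark in all columns but the last, which are listed near 0 in 3 libraries.

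Iron status genes made up the largest set of members from a single list, with 6 of its 17 genes (15 tested). Over all tested loci, 68 of 15905 were members. The lists were drawn up with earlier results of these data known, so this rank rests on that choice. Each of the 6 was higher in hybrid replicate 2. In Arabidopsis leaves, bHLH38, bHLH100 and bHLH101, transcription factors of the Ib subgroup, and the small IRONMAN (IMA) peptides are made when iron is short, and ferritins, which store iron, are made when it is plentiful. IMA3 was listed at 9.65 and 6.82 FPKM in Ak-1, at 21.2 in hybrid replicate 1 and at 159 in hybrid replicate 2. IMA2 was listed at 1.64 and 2.04 FPKM in Ak-1, at 2.19 in hybrid replicate 1 and at 14.9 in replicate 2. Its neighbour IMA1 had 0.91 and 0.58 FPKM in Ak-1, 0.58 in hybrid replicate 1 and 7.23 in replicate 2. For all 3 peptides replicate 2 of the hybrid stood above every other library, and for IMA3 hybrid replicate 1 was also above both Ak-1 libraries.

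The bHLH genes were near 0 outside hybrid replicate 2. Values of bHLH100 were 0.25 and 0 FPKM in Ak-1, 0.12 in hybrid replicate 1 and 5.09 in replicate 2. For bHLH101 they were 0.42 and 0 in Ak-1, 0.44 in hybrid replicate 1 and 5.35 in replicate 2. The third, bHLH38, had 0.34 and 0.06 in Ak-1, 0.1 in hybrid replicate 1 and 3.96 in replicate 2. Only hybrid replicate 2 exceeded 1 FPKM for these 3 genes among the 4 libraries.

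The rest of the iron list shared the contrast in part. Of all 15 tested iron genes, members included, 9 were more than 1 higher in hybrid replicate 2 and 2 more than 1 higher in replicate 1. Over tested loci the shares were 2.70% and 1.31%. The 9 hold the 6 members, which the rule chose for such a difference, besides OPT3, BTS and FRO3 (1.37). The ferritin gene FER1 had 161 and 159 FPKM in Ak-1, 104 in hybrid replicate 1 and 28.6 in hybrid replicate 2. FER4, another ferritin, had 15.1 and 15.5 in Ak-1, 14.9 and 5.11 in the hybrid. These ferritin genes were the 2 on the list that were lower in replicate 2 by more than 1. FER3, also a tested ferritin gene of the list, did not share this and differed by −0.05 between the hybrid libraries. OPT3, a phloem transporter of iron, had 33.0 and 24.5 FPKM in Ak-1, 29.4 in hybrid replicate 1 and 80.3 in replicate 2. BTS, a ubiquitin ligase that limits the iron deficiency response, had 30.5 and 21.8 in Ak-1, 16.2 in hybrid replicate 1 and 43.8 in replicate 2. Both were highest in hybrid replicate 2. The median of the 15 was 1.38 for the hybrid difference and −0.27 for the Ak-1 difference, beside 0.05 and −0.04 over tested loci. The members are in the median of 1.38, so the rule set it in part. Among the members, bHLH38, bHLH100, bHLH101 and IMA1 reached the filter on the mean only through hybrid replicate 2. Their place among the 15 and among the 9 was thus fixed by that library. For hybrid minus Ak-1, limma called 1 of the 15 higher and 0 lower, against 257 and 400 of the 15905 tested loci. The gene called was NAS4, which is no member and not among the 9, with a hybrid difference of 0.46. The root uptake genes IRT1 and FRO2 were at most 0.07 and 1.46 FPKM in every library.

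**Figure D4:**
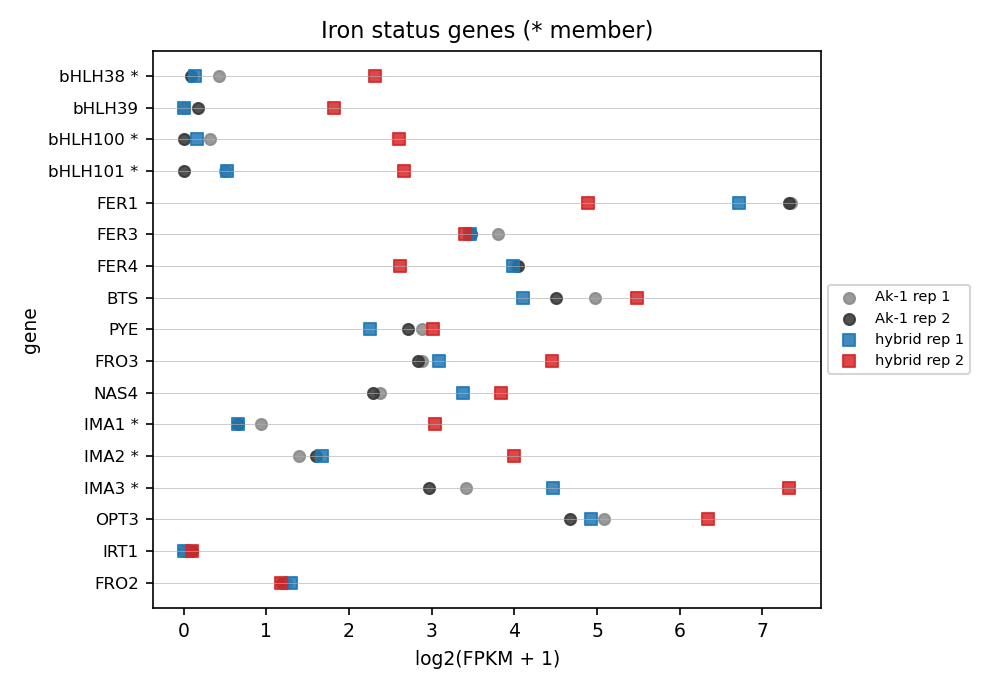
Levels of the 17 iron status genes in log2(FPKM + 1), with circles for the Ak-1 libraries and squares for the hybrid libraries; asterisks mark the 6 members. Hybrid replicate 2 lies to the right of the other libraries for the bHLH and IMA genes and to their left for FER1 and FER4.

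AT5G01595, an antisense RNA annotated opposite FER1, was higher in hybrid replicate 1, as FER1 was. It had 0.26 and 0 FPKM in Ak-1, 22.2 in hybrid replicate 1 and 4.73 in replicate 2, so both hybrid libraries exceeded both Ak-1 libraries. The kit named in the labels does not mark strand, so where AT5G01595 and FER1 overlap (63.6% of the shorter) their reads were counted without knowing which gene they came from. PCR1, a plant cadmium resistance protein, had 0.08 and 0 FPKM in Ak-1, 0.18 in hybrid replicate 1 and 5.2 in replicate 2.

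On the lists of rapid stress response and jasmonate genes were 4 members, ERF1A, ZAT10, TCH4 and JAZ7, and each was lowest in hybrid replicate 1. Such genes are switched on quickly by handling or attack, and several encode transcription factors. ORA47, ERF2 and MKK9, on neither list, are described with them. JAZ7, a repressor of jasmonate signalling, had 24.6 and 25.6 FPKM in Ak-1, 0.13 in hybrid replicate 1 and 9.58 in replicate 2, the sixth largest difference among members higher in replicate 2. ORA47, an ERF-family activator of jasmonate synthesis, had 115 and 135 FPKM in Ak-1, 5.26 in hybrid replicate 1 and 43.4 in hybrid replicate 2. In both genes the hybrid libraries lay under both Ak-1 libraries, and replicate 1 lay far under replicate 2.

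The ethylene response factor genes ERF1A and ERF2 showed the same order. ERF1A had 99.0 and 104 FPKM in Ak-1, 11.2 in hybrid replicate 1 and 61.7 in replicate 2. ERF2 had 71.7 and 90.6 in Ak-1, 6.34 in hybrid replicate 1 and 38.7 in hybrid replicate 2. Its neighbour ERF5, no member, had 28.3 and 40.5 FPKM in Ak-1, 2.49 in hybrid replicate 1 and 10.7 in replicate 2. All 3 ERF genes were highest in Ak-1 and lowest in hybrid replicate 1. ZAT10, a zinc finger repressor of stress responses, was at 50.7 and 84.4 FPKM in Ak-1, at 7.03 in hybrid replicate 1 and at 39.4 in replicate 2. MKK9, a kinase upstream of the stress kinases MPK3 and MPK6, was at 41.8 and 51.6 in Ak-1, at 6.96 in hybrid replicate 1 and at 41.8 in replicate 2. Hybrid replicate 1 was thus the lowest library for each of these genes, and for MKK9 hybrid replicate 2 equalled the lower Ak-1 library. AT1G25400, of no known function, had 23.5 and 35.4 FPKM in Ak-1, 1.58 in hybrid replicate 1 and 10.1 in replicate 2.

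TCH4, a touch-induced xyloglucan-modifying enzyme of the cell wall, had Ak-1 in the middle. It was listed at 25.7 and 44.4 FPKM in Ak-1, at 15.1 in hybrid replicate 1 and at 78.9 in replicate 2. Over the rapid stress list, 11 of 24 tested genes were more than 1 higher in hybrid replicate 2 and 0 in replicate 1. Over tested loci the shares were 2.70% and 1.31%. The 11 include the 3 members on the list, which the rule chose for a difference above 2. The median hybrid difference of the list was 0.93 and its Ak-1 difference 0.61, so Ak-1 replicate 2 was also the higher library of its pair. Of 20 tested jasmonate genes 10 were more than 1 higher in hybrid replicate 2 and 0 in replicate 1 (median 1.01 in the hybrid, 0.21 in Ak-1). JAZ7, the member, was among the 10. For hybrid minus Ak-1, limma called 8 of the 24 and 4 of the 20 lower and none higher. Over all 15905 tested loci it called 400 lower and 257 higher. The 18S ribosomal RNA locus was also lowest in hybrid replicate 1; its part in these differences was not tested.

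Several members on no list were near the Ak-1 level in hybrid replicate 2 and under it in replicate 1. AT3G15450, an aluminium-induced protein with YGL and LRDR motifs, had 243 and 290.1 FPKM in Ak-1, 36.9 in hybrid replicate 1 and 208 in hybrid replicate 2. BT5, a BTB and TAZ domain protein related to BT2, had 55.1 and 80.6 FPKM in Ak-1, 16.1 in hybrid replicate 1 and 86.6 in replicate 2. SIP2, which breaks down raffinose, had 78.6 and 59.9 in Ak-1, 24.6 in hybrid replicate 1 and 107 in replicate 2. In these 3 genes hybrid replicate 1 was the lowest library.

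The beta-amylase family gene BMY3 differed in which library stood apart. It had 77.6 and 66.2 FPKM in Ak-1, 51.4 in hybrid replicate 1 and 229 in hybrid replicate 2, well above the rest. Of 14 tested carbon starvation genes 4 were more than 1 higher in hybrid replicate 2, 0 in replicate 1 and none was a member (median 0.78, Ak-1 0.11). Limma called 2 of the 14 lower and 0 higher in the hybrid, against 400 and 257 of the 15905 tested loci. More members were lowest in hybrid replicate 1. AT4G32480, a protein with a domain of unknown function, had 139 and 131 FPKM in Ak-1, 24.5 in hybrid replicate 1 and 107 in replicate 2. The phosphodiesterase gene GDPD2 had 6.27 and 4.64 FPKM in Ak-1, 0.56 in hybrid replicate 1 and 5.31 in replicate 2. PIA1, an ankyrin-repeat protein that binds phytochrome, had 2.82 and 1.98 in Ak-1, was listed at 0 in hybrid replicate 1 and had 3.55 in replicate 2. Hybrid replicate 1 was the lowest library for GDPD2 and PIA1 too.

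Nutrient and storage genes beyond iron included SDI1, a sulfur deficiency gene that restrains glucosinolate synthesis. It had 6.74 and 1.27 FPKM in Ak-1, 1.87 in hybrid replicate 1 and 12.4 in replicate 2, and the Ak-1 libraries were themselves 1.77 apart on the log2 scale. Of 8 tested sulfur genes 4, SDI1 included, were more than 1 higher in hybrid replicate 2 and 1 in replicate 1 (median 0.86). Their Ak-1 median was −0.91, and limma called none in either direction. Among 10 tested nitrate response genes 4 were more than 1 higher in hybrid replicate 2 and 0 in replicate 1 (median 0.83, Ak-1 0.30), with no call either. BT2, left out as a member, is among those 4. The clock, flowering, aliphatic glucosinolate, glucosinolate breakdown, cold and abscisic acid, flavonoid, salicylic acid, resistance and auxin lists held no member, with FLC, SOC1, ESP, MAM3 and AOP2 left out. Medians of the hybrid difference over these lists ran from −0.36 for auxin and shade growth to 0.68 for aliphatic glucosinolates. Of 21 tested clock genes 4 were more than 1 higher in hybrid replicate 2 and 2 in replicate 1 (median 0.14). For 28 tested aliphatic glucosinolate genes these counts were 7 and 0. Every other list here had at most 2 and 1. The shares over tested loci were 2.70% and 1.31%. The loci left out as members are included in these medians and counts.

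A further set of 19 members was under 1 FPKM in both Ak-1 libraries and in hybrid replicate 1 and reached 3.96 to 23.4 FPKM (median 6.53) in hybrid replicate 2; the iron regulators bHLH38, bHLH100 and bHLH101 and the peptide gene IMA1 belong to it. They passed the filter on the mean only through hybrid replicate 2, so a value of several FPKM there was fixed by the choice, and the counts that follow share this limit. Over all tested loci 44 were under 1 FPKM in every library but hybrid replicate 2, and 6 in every library but hybrid replicate 1. AT4G19240, of unknown function, had the largest difference of all members. Its value was 0 in each Ak-1 library and in hybrid replicate 1, and 23.4 FPKM in hybrid replicate 2.

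Of the 19, 5 are annotated as pseudogenes, all of those that were higher in hybrid replicate 2, and they fall in a pair of places on chromosome 3. AT3G29734, AT3G29736 and AT3G29739 lie within a stretch with at most 1 locus between neighbours. AT3G29736 had 0.04 and 0.03 FPKM in Ak-1, 0 in hybrid replicate 1 and 7.68 in replicate 2. AT3G29734 had 0.04 and 0 in Ak-1, 0 in hybrid replicate 1 and 4.89 in replicate 2. AT3G29739 was listed at 0 in the other 3 libraries and at 5.94 FPKM in hybrid replicate 2. The nearest tested loci on either side, AT3G29680 and AT3G29760, differed by −0.26 and −0.15 between the hybrid libraries, so the difference was not shared by the flanks.

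On the same chromosome, AT3G62480 and AT3G62490 are adjacent pseudogenes. AT3G62490 had 0.04 and 0 FPKM in Ak-1, 0 in hybrid replicate 1 and 11.2 in replicate 2. AT3G62480 was listed at 0 in the other 3 libraries and at 5.48 FPKM in hybrid replicate 2. The identifier AT3G62480.1, which has no entry of its own in the reference, had 0.12 and 0 in Ak-1, 0 in hybrid replicate 1 and 6.53 in replicate 2. These 3 may share reads, and flanking AT3G62470 and AT3G62500 differed by 0.11 and 0.89. AT1G50735.1 was listed at 0 in the other 3 libraries and at 10.1 FPKM in hybrid replicate 2; without the suffix the identifier is annotated as SADHU8-1, of the Sadhu retrotransposon family.

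Protein-coding genes of this near-silent kind were diverse. AT1G63390, annotated as similar to flavin monooxygenases, was at 0 in Ak-1, at 0.58 FPKM in hybrid replicate 1 and at 11.9 in hybrid replicate 2. AT1G12340, of the cornichon family, had 0.28 and 0 FPKM in Ak-1, 0 in hybrid replicate 1 and 5.56 in replicate 2. Its sequence is 98.1% identical to AT1G12390, at 10.4 and 11.3 FPKM in Ak-1, 7.68 in hybrid replicate 1 and 6.08 in replicate 2, so reads may be divided between them. The copy was not higher in hybrid replicate 2, unlike AT1G12340. The F-box gene AT1G10110 was at 0 in Ak-1, at 0.1 in hybrid replicate 1 and at 5.46 in replicate 2. AT4G19630, of the winged-helix family, had 0.56 and 0.5 FPKM in Ak-1, 0.35 in hybrid replicate 1 and 7.03 in replicate 2. For AT2G14247, of unknown function, values were 0.75 and 0.11 in Ak-1, 0.93 in hybrid replicate 1 and 9.97 in replicate 2. All of these were highest in hybrid replicate 2 and under 1 FPKM elsewhere, apart from the copy AT1G12390.

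PYK10, the main beta-glucosidase of endoplasmic reticulum bodies in roots and seedlings, belongs to the same set, with 0.31 and 0.82 FPKM in Ak-1, 0.35 in hybrid replicate 1 and 8.92 in replicate 2. It is also on the list of root markers. Of the other 9, SHR had 2.60 to 6.62 FPKM and the remaining 8 had at most 0.23 FPKM in any library, hybrid replicate 2 included. The list summed to 3.89 and 3.90 FPKM in Ak-1, 5.72 in hybrid replicate 1 and 15.8 in hybrid replicate 2.

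A few members were higher in hybrid replicate 2 with hybrid replicate 1 already above Ak-1. THI2.2, a thionin of the family of small antimicrobial peptides, had the highest level of any member in any library. It was listed at 6.32 and 5.55 FPKM in Ak-1, at 27.3 in hybrid replicate 1 and at 399.7 in hybrid replicate 2. AT1G50290, of unknown function, was at 0 in both Ak-1 libraries, at 3.64 FPKM in hybrid replicate 1 and at 30.8 in replicate 2. Both genes thus stood above Ak-1 in either hybrid library, and far more so in replicate 2. AT2G27402, annotated as a plastid transcriptionally active protein, had 0.22 and 0.52 FPKM in Ak-1, 1.74 in hybrid replicate 1 and 11.6 in replicate 2. AIG1, a GTP-binding protein gene named for its induction by a bacterial avirulence gene, had 0.63 and 0.3 in Ak-1, 1.47 in hybrid replicate 1 and 9.25 in replicate 2. In these 4 genes both hybrid libraries lay above both Ak-1 libraries.

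The remaining members higher in hybrid replicate 2 were AT1G27030, AT2G23110, AT2G05540, AT3G56360, AT5G05250 and AT3G48640. AT1G27030, of unknown function, had the third largest difference, with 1.58 and 1.32 FPKM in Ak-1, 0.44 in hybrid replicate 1 and 17.0 in replicate 2. AT3G56360 had 123 and 103 FPKM in Ak-1, 81.1 in hybrid replicate 1 and 342 in hybrid replicate 2. AT5G05250, also uncharacterized, had 11.9 and 6.98 in Ak-1, 7.67 in hybrid replicate 1 and 44.9 in replicate 2. These 3 were highest in hybrid replicate 2 and nearer to Ak-1 in replicate 1. AT2G23110, a late embryogenesis abundant protein gene, had 1.56 and 1.02 FPKM in Ak-1, 0.15 in hybrid replicate 1 and 6.28 in replicate 2. AT2G05540, of the glycine-rich proteins, had 40.3 and 47.2 in Ak-1, 38.7 in hybrid replicate 1 and 167 in hybrid replicate 2. AT3G48640, of unknown function, had 2.55 and 3.72 in Ak-1, 1.35 in hybrid replicate 1 and 8.52 in replicate 2. For all 6 the hybrid and Ak-1 groups overlapped.

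Among the 21 members higher in hybrid replicate 1, most were expressed in Ak-1 and low in hybrid replicate 2. Their median level was 13.4 FPKM for the Ak-1 mean, 10.1 in hybrid replicate 1 and 0.67 in hybrid replicate 2, whereas the 47 higher in replicate 2 had medians of 1.45, 0.93 and 11.2 FPKM. Of the 17 with an Ak-1 mean of at least 5 FPKM, 10 were under 1 FPKM in hybrid replicate 2. Over all tested loci with such an Ak-1 mean, 54 were under 1 FPKM in hybrid replicate 2 and 54 in hybrid replicate 1, so low values of this kind were as frequent in either library. In hybrid replicate 1 the 10 members stood at 22.5% to 115% of the Ak-1 mean, with a median of 54.7%. Of them 5 lay between 35% and 65%. The rule puts a floor under these replicate 1 values, and no share over tested loci was taken for this range, so the count is a description.

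The F-box genes AT1G27540 and AT1G27580, of the DUF295 family, lie close together on chromosome 1 with 8 loci between them. AT1G27540 had 235 and 208 FPKM in Ak-1, 91.3 in hybrid replicate 1 (41.2% of the Ak-1 mean) and 7.24 in hybrid replicate 2 (3.27%). AT1G27580 had 45.3 and 39.5 in Ak-1, 9.52 in hybrid replicate 1 and 0.67 in replicate 2. Their sequences are 97.5% identical where they align, so the division of reads between them is uncertain, but both ran in the same order. The flanking tested loci AT1G27530 and AT1G27595 differed by 0.00 and −0.16 between the hybrid libraries.

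The 5 between 35% and 65% were AT3G50290, AT5G24480, AT5G53700, AT5G16350 and AT2G06002, and the other 5 of the 10 stood at 22.5%, 71.7%, 75.4%, 79.9% and 115%. AT3G50290, of a plant acyltransferase family, had 12.7 and 14.1 FPKM in Ak-1, 7.42 in hybrid replicate 1 (55.3% of the Ak-1 mean) and 0 in hybrid replicate 2. AT5G24480, related to beta-galactosidases, had 10.8 and 10.3 in Ak-1, 5.62 in hybrid replicate 1 (53.3%) and 0 in replicate 2. AT5G53700, an RNA-binding family gene, had 13.6 and 13.4 in Ak-1, 6.69 in hybrid replicate 1 (49.6%) and 0.1 in replicate 2. The Ak-1 libraries were close for each, and hybrid replicate 1 lay between them and hybrid replicate 2.

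AT5G16350, of the wax ester synthase family, had 20.1 and 17.3 FPKM in Ak-1, 10.1 in hybrid replicate 1 (54.1%) and 0.66 in replicate 2. The non-coding AT4G04223 had 41.4 and 49.7 in Ak-1, 23.8 in hybrid replicate 1 (52.3%) and 2.19 in replicate 2. AT4G04223 is 99.2% identical to AT3G56210, which had 17.6 and 19.7 FPKM in Ak-1, 14.7 in hybrid replicate 1 and 7.21 in replicate 2, and the 2 may share reads. AT2G06002, also non-coding, had 17.8 and 22.3 in Ak-1, 8.08 in hybrid replicate 1 (40.3%) and 0.3 in hybrid replicate 2. These 3 kept the same order of libraries, with Ak-1 highest and hybrid replicate 2 lowest.

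**Figure D5:**
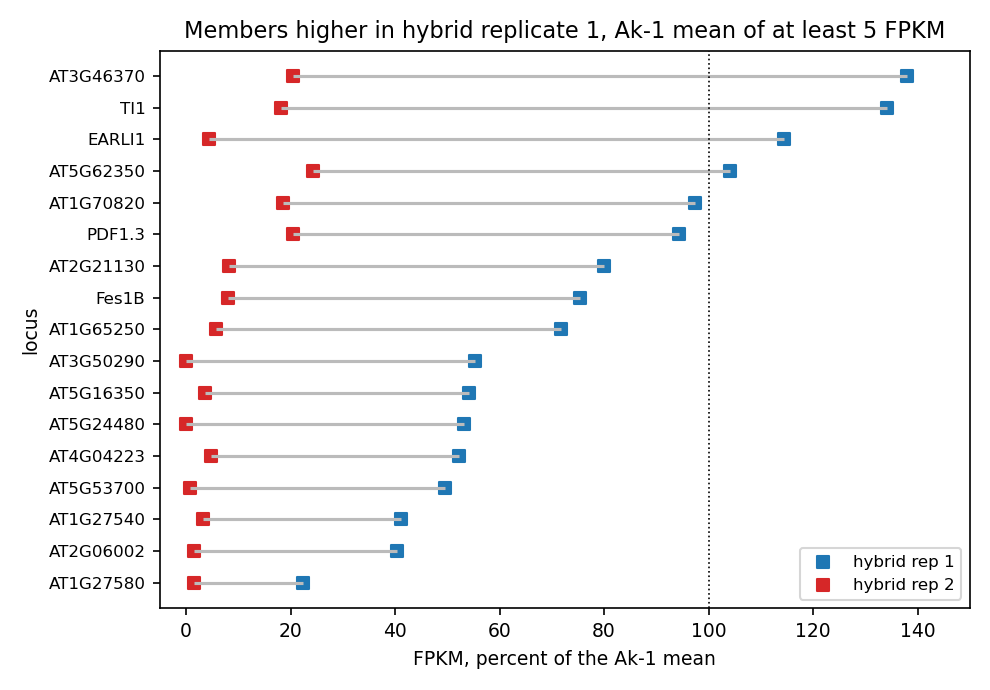
FPKM in each hybrid library as a percent of the Ak-1 mean, for the 17 members higher in hybrid replicate 1 with an Ak-1 mean of at least 5 FPKM; the dotted line marks the Ak-1 mean. Replicate 2 lies at 24.4% or less throughout, and replicate 1 runs from 22.5% (AT1G27580) to 138% (AT3G46370).

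A further 6 members higher in hybrid replicate 1 stood at 71.7% to 138% of the Ak-1 mean there and were lower in replicate 2. AT1G70820, a putative phosphoglucomutase, had 54.4 and 56.6 FPKM in Ak-1, 54.0 in hybrid replicate 1 and 10.3 in replicate 2. AT5G62350, of the pectin methylesterase inhibitor family, had 74.8 and 79.6 in Ak-1, 80.4 in hybrid replicate 1 and 18.8 in replicate 2. Fes1B, related to a yeast partner of the chaperone Hsp70, had 10.4 and 10.7 in Ak-1, 7.95 in hybrid replicate 1 and 0.85 in replicate 2. For these 3, replicate 1 was the hybrid library nearer to Ak-1. AT1G65250, a protein kinase family gene, had 10.97 and 10.2 FPKM in Ak-1, 7.58 in hybrid replicate 1 and 0.6 in replicate 2. AT2G21130, a cyclophilin, had 6.32 and 7.19 in Ak-1, 5.4 in hybrid replicate 1 and 0.56 in replicate 2. AT3G46370, a leucine-rich repeat kinase gene, had 6.05 and 5.29 in Ak-1, 7.82 in hybrid replicate 1 and 1.16 in replicate 2. Only hybrid replicate 2 was more than 1 from the Ak-1 mean for these 6. For AT1G70820, Fes1B, AT1G65250 and AT2G21130, though, both hybrid libraries lay under both Ak-1 libraries.

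Small secreted proteins were found on this side too. EARLI1, a cold- and vernalization-responsive lipid transfer protein, had 5.97 and 13.9 FPKM in Ak-1, 11.4 in hybrid replicate 1 and 0.44 in replicate 2. AT4G12490, of the same family with 1 locus between, had 2.03 and 5.83 in Ak-1, 11.99 in hybrid replicate 1 and 0.8 in replicate 2. Ak-1 replicate 2 was the higher of its pair for both. TI1, a trypsin inhibitor of the defensin-like family, had 12.6 and 26.1 in Ak-1, 26.0 in hybrid replicate 1 and 3.51 in replicate 2. The plant defensin gene PDF1.3 had 33.8 and 50.8 in Ak-1, 39.9 in hybrid replicate 1 and 8.66 in replicate 2. For these 4, hybrid replicate 2 was the lowest library while the thionin THI2.2 was highest in it.

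Besides AT5G01595, 2 members were near 0 in Ak-1 and highest in hybrid replicate 1. The pseudogene AT1G20390 was at 0 in each Ak-1 library, at 11.2 FPKM in hybrid replicate 1 and at 0.36 in replicate 2. AT1G19550, of the glutathione S-transferase family, had 0 and 0.24 in Ak-1, 5.03 in hybrid replicate 1 and 0 in hybrid replicate 2. It aligns at 95.3% identity to DHAR1, a dehydroascorbate reductase gene at 76.3 and 85.7 FPKM in Ak-1, 74.5 in hybrid replicate 1 and 90.1 in replicate 2, so its value may rest on shared reads.

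The members were spread over the genome. Chromosomes 1 to 5 held 20, 11, 15, 8 and 14 of them, between 0.338% (chromosome 4) and 0.482% (chromosome 1) of the tested loci of each, and the chloroplast and mitochondrial genomes held none. Members with at most 10 loci between them were the pairs and the triplet named above: AT1G27540 with AT1G27580, IMA2 with IMA1, AT3G29734 to AT3G29739, AT3G62480 with AT3G62490, and EARLI1 with AT4G12490. The 120 nearest tested neighbours of members differed by a median size of 0.26 between the hybrid libraries, against 0.23 over tested loci, and 7 of them (5.83%, against 4.01%) differed by more than 1. FER1 and ERF5 were among the 7.

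By class, 57 members are protein-coding, 6 are pseudogenes, 3 are non-coding RNAs and 2 have no entry in the reference. A near-identical copy or an overlapping locus makes 13 values uncertain, since reads may be divided: AT1G10110, AT1G12340, AT1G19550, AT1G27540, AT1G27580, AT1G63390, ORA47, AT2G14247, AT3G62480, AT3G62490, AT4G04223, EARLI1 and AT4G12490. ORA47's overlapping partner AT1G74929 was listed at 0 in all 4 libraries. The copies of AT3G62480 and AT3G62490 were at most 0.06 FPKM. For AT1G10110, AT2G14247, EARLI1, AT4G12490 and AT1G63390 the partner locus had no value in these data, so any division of reads with it cannot be seen. AT5G01595 is not counted here, since its overlap with FER1 (63.6%) is under 80%, but its value is uncertain too. In hybrid replicate 1, 10 members were listed at 0 and in hybrid replicate 2, 3 members were (AT3G50290, AT5G24480 and AT1G19550). The differences of these 13 members, that of AT4G19240 included, are on the log2(FPKM + 1) scale against a listed 0, so their sizes and ranks rest on that 0, and no ratio is given for them.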

How the data were processed

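RNA-seq values of 4 first-leaf libraries were used, 2 of Ak-1 and 2 of Col-0xAk-1, grouped by sample title. The deposited FPKM values hold 1 value per locus, rounded to 2 decimals by the authors. Per the submitters' processing notes, build TAIR10, edgeR 3.12.0, Cufflinks 2.0.2, TopHat and TopHat2 2.0.8b were used, in roles not given in the sources used here. Per the labels' protocols, libraries were made from 1 ug of total RNA with a TruSeq RNA V2 kit. Total depth is unknown.

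Loci whose mean reached 1 FPKM were fitted with limma 3.58.1, run in R 4.3.3, after transformation to log2(FPKM + 1) (trend, no covariate, two-sided, Benjamini-Hochberg adjustment over 15905 loci, called under 0.05). There were 2 residual and 3.18 prior degrees of freedom, and the procedure was tested on simulated data. Such fold changes understate changes of low values. Since separate plants are not stated, p-values reflect library spread alone, possibly technical. Replicate numbers share no labelled origin and do not pair the samples.

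Members and lists were chosen with earlier results of these data known. Values by library were planned for the 12 largest differences in each direction, members under 0.1 FPKM in a hybrid library, members on a list and loci beside the threshold. Further members were added after their values were seen. Names, neighbours, overlaps (80% of the shorter locus) and copies (blastn 2.17.0, 90% identity over 50% of the locus) come from RefSeq TAIR10.1, which held 66 members and 31416 of all identifiers. Its coordinates and sequences are not printed, since the build differs in name.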

Additional observations from a re-analysis of the deposited data

How the results depend on the processing

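With a pseudocount of 0.1 the rule finds 168 loci, with the filter at 5 FPKM 41, with no filter 70, and after median-of-ratios scaling or quantile normalization 68 and 67. All 68 kept their direction under these scalings and the pseudocount; AT3G48640 and GDPD2 no longer passed 2 after median-of-ratios scaling, and 6 members did not after quantile normalization. An Ak-1 difference above 1 was found for 13 members and 214 of the 15905 tested loci with a pseudocount of 0.1. With the pseudocount of 1 these counts were 3 and 50. Ak-1 stayed nearer hybrid replicate 1 for 50 or 51 members in all settings run.

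For hybrid minus Ak-1, 657 tested loci were called, 298 with at least 5 FPKM required (10836 loci) and 172 with no filter (34133 loci). Leaving out each library in turn gave 4 to 1311 calls, and 0 to 49 members, the latter without hybrid replicate 1; without hybrid replicate 2 there were 18 members, and without either Ak-1 library 0 members. With a pseudocount of 0.1, 2 members were called (AT1G50290 and AT5G01595). A replicate block called 565 loci and 2 members (AT5G01595 higher, AT1G25400 lower). Replicate differences of the groups correlated at −0.14 across tested loci, and with crossed numbers, added after seeing the data, the block called 701 loci and 0 members. The cause of these changes was not tested. The depth behind the values is unknown, which limits what low values can show.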
